A study of Mus musculus with 16 samples.

Results

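The passage from the transitional 2 (T2) stage to the marginal zone (MZ) stage was followed by RNA-Seq of B-cells sorted from mouse spleen, with both genotypes of the study pooled. Of the 16 libraries of the series, the 8 whose labels name T2 or MZ B-cells were compared, 4 against 4. Each subset had 2 biological replicates from wild-type C57BL/6 mice (WT) and 2 from mice of the same strain background that lack the microRNA gene Mir146a (labelled Mir-146a-/-, here KO), so that the KO libraries of both subsets share this deletion. No treatment is named, and the age of the mice is not given in the sources used here. Each sample was sorted by flow cytometry from pooled spleens of several mice, so a library is an average over animals. T2 cells were gated as CD23+, AA4+, IgM high and CD21 low, and MZ cells as CD23-, AA4-, IgM high and CD21 high. Fcer2a (CD23), Cd93 (AA4), Cr2 (CD21) and Ighm (IgM) therefore follow from the sort and are no findings. Values are RPKM, reads per kilobase of exon scaled to the mapped reads of the library, and the values of a subset are always given in the order WT replicate 1, WT replicate 2, KO replicate 1, KO replicate 2.

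Transitional B-cells are recent arrivals from the bone marrow. In the spleen they become either follicular (FO) B-cells, which recirculate and enter T cell-dependent responses, or MZ B-cells, which stay at the border of white and red pulp, meet blood-borne antigens and answer them quickly. Notch2 signaling, started by the ligand Delta-like 1 and carried out by the DNA-binding factor RBPJ with its Mastermind coactivators, is needed for the MZ fate. MZ cells are held in place by receptors for sphingosine-1-phosphate and by integrins, carry much CD21 and CD1d, and are known for their high responsiveness to Toll-like receptor ligands. The T1 libraries, an earlier transitional stage, and the FO libraries are quoted only as ranges for orientation.

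The 8 libraries were scaled to between 9003343 reads (WT T2 replicate 1) and 18909029 reads (WT MZ replicate 2). Spearman's correlation across genes was 0.970 to 0.986 between replicates and 0.895 to 0.936 between a T2 and an MZ library, and the first principal component held 64.9% of the variance. Of the markers of the labelled cell types, Cr2, Cd93 and Fcer2a are sort antigens, so the sums below follow largely from the gates. Cd1d1 and S1pr3, not gated on, averaged 24.5 and 2.53 RPKM in T2 and 219 and 114 RPKM in MZ. Summed RPKM of the MZ markers Cr2, Cd1d1 and S1pr3 was 167 to 196.5 in T2 and 1019 to 1349 in MZ, whereas the T2 sort markers Cd93 and Fcer2a summed to 617 to 722 in T2 and 7.03 to 23.6 in MZ. A set of 6 B lineage markers, such as Cd79a, Cd79b, Ms4a1, Pax5 and Ptprc, summed to 4767 to 5148 and 4465 to 4948, and 0 of these 6 were called. Mir146, the targeted gene (chromosome 11 from 43374397 to 43374461), is a hairpin of 65 bases with 0 reads in the 4 T2 libraries and 0 in the 4 MZ libraries, so the genotype labels could not be checked with it. KO replicate 1 was low for immediate early genes in both subsets, and its values are given with those genes.

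Markers of other cells were low but not alike in the subsets. Of 12 myeloid markers 11 were tested and 9 were lower in MZ, and their summed RPKM was 44.7 to 103 in T2 and 12.1 to 38.9 in MZ. For neutrophils, S100a8 and S100a9 were lower and Ngp and Camp were not called, with sums of 32.4 to 64.0 and 5.16 to 31.1. None of 5 tested T cell markers was called (10.3 to 21.02 and 7.98 to 15.5), nor was the tested red cell marker, while Gzma of NK cells was lower (sums of 1.43 to 6.59 and 0.580 to 2.74), and the platelet genes Pf4 and Ppbp were at 0 in all T2 libraries. The calls of Lyz2, Csf1r, C1qa, C1qb, Hmox1, Slc40a1, S100a9 and Gzma were lost under at least 1 alternative. The part of such cells in the results was not tested. In bulk samples fewer cells of a type and less RNA per cell cannot be told apart.

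RBPJ recognises the core TGGGAA. To show where this core stands in front of genes that carry the Notch response and the CD21 phenotype, the 250 bases before the start sites of Hes5 and Dtx1, both Notch targets, and of Cr2 are given from RefSeq on GRCm38.p6, with each core, on either strand, in capitals (TTCCCA on the other strand).
Hes5 (chr4:154960673-154960922, plus strand): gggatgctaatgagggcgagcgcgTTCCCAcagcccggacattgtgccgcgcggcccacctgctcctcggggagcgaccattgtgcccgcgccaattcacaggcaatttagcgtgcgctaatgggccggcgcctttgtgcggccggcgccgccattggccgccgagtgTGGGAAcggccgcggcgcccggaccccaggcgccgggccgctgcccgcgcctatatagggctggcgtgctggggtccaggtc
Dtx1 (chr5:120711670-120711919, minus strand): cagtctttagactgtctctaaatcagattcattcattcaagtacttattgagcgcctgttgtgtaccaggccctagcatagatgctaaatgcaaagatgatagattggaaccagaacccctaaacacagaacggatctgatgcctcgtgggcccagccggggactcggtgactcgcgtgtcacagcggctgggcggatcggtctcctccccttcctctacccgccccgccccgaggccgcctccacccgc
Cr2 (chr1:195176720-195176969, minus strand): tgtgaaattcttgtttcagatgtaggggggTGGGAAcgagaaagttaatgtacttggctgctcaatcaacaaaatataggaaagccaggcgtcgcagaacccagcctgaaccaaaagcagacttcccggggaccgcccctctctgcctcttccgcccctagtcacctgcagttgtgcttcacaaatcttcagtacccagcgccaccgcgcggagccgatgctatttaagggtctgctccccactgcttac
The Hes5 window held 2 cores in opposite orientation, with their first bases 82 and 226 bases before the start, the Cr2 window held 1 at 220 bases, and the Dtx1 window held none. All 3 cores carried a further G in front (GTGGGAA). Of all 32851 promoter windows of this length, 21.6% held the core, 5.42% the core with the further G, and 2.77% held 2 or more cores. Among promoters of genes higher in MZ the shares were 23.5% and 7.77% for the core and for the core with G, among those of genes lower in MZ 18.4% and 5.15%, and 10 of 35 promoters of the Notch list held the core. A match of these letters is a description of the window and no measurement of binding.

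Of 11816 genes with a mean RPKM over 1 in T2 or MZ, 1365 (11.6%) were called different between T2 and MZ, that is, at an adjusted p under 0.05 (limma on log2(RPKM + 0.5) with genotype as covariate, Benjamini-Hochberg over all genes tested) and a log2 difference beyond 1 in size. In MZ, 816 (6.91%) were higher and 549 (4.65%) lower. Below, "rose" and "fell" are used of called genes only, and every difference is MZ minus T2 of log2(RPKM + 0.5), so that the change of poorly covered genes is understated. A log2 difference beyond 2 was reached by 204 genes that rose and 103 that fell, and one beyond 4 by 26 and 7. The median SE was 0.11. Every MZ library lay above every T2 library for 2769 genes (23.4%) and below for 2385 (20.2%), and 784 of the 816 risen and 509 of the 549 fallen genes were free of overlap. Against all 12 libraries of the other 3 subsets, MZ was highest in every library for 1815 genes (15.4%) and lowest for 1197 (10.1%). Among the called genes this held for 686 (84.1%) of those that rose and 383 (69.8%) of those that fell.

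**Figure D1:**
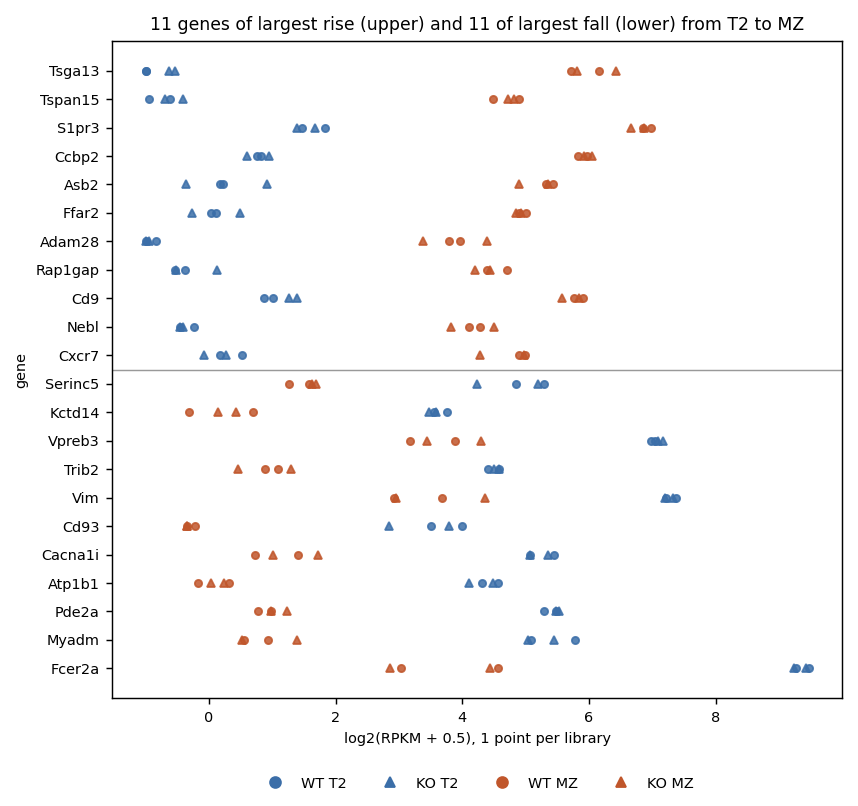
Level of 11 of the 12 genes with the largest rise (upper block) and 11 of the 12 with the largest fall (lower block), as log2(RPKM + 0.5) with 1 point per library; circles are WT, triangles KO, blue T2 and orange MZ. The genes were chosen among called genes without overlap between the subsets. The separation of MZ and T2 points in each row follows from this choice. The log2 difference runs from 6.82 for Tsga13 to -5.63 for Fcer2a.

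Among the largest rises were genes of chemokine scavenging, lipid sensing and membrane organisation. Ccbp2 (Ackr2), a decoy receptor that removes inflammatory CC chemokines (chromosome 9 from 121898355 to 121911074), was at 1.28, 1.19, 1.02 and 1.43 RPKM in T2 and 56.1, 62.3, 65.4 and 60.3 in MZ. Its level differed little within a subset, and its mean was 49.7-fold higher in MZ (log2 difference 5.16, SE 0.09, adjusted p = 1.07e-07). The T1 libraries held 0.161 to 1.47 and the FO libraries 1.16 to 2.6, so that MZ alone was high. Tspan15, a tetraspanin that partners the protease ADAM10, which cleaves Notch receptors, was at 0.154, 0.0204, 0.115 and 0.257 in T2 and 29.2, 21.9, 25.8 and 27.6 in MZ (log2 difference 5.39, SE 0.14, adjusted p = 3.32e-07), while Adam10 itself was at 41.0 ± 5.4 and 43.4 ± 2.35 and was not called. Ffar2, which senses short-chain fatty acids, rose from 0.583 ± 0.236 to 29.8 ± 1.42 (mean ± SD, n = 4 libraries each; log2 difference 4.83), and Asb2, the substrate subunit of a ubiquitin ligase, from 0.74 ± 0.464 to 37.9 ± 5.82 (5.01). Rap1gap, which switches off the GTPase Rap1, rose from 0.314 ± 0.193 to 21.3 ± 3.16 (4.76) and Nebl, an actin-binding protein, from 0.263 ± 0.0569 to 17.8 ± 3.57 (4.57). These 4 were chosen among genes without overlap between the subsets. Tsga13 and Adam28 had only 5 and 3 reads over the 4 T2 libraries, so their log2 differences of 6.82 and 4.83 depend on the pseudocount. In MZ they reached 65.9 ± 15.4 and 14.7 ± 4.4 RPKM.

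The largest falls took in ion transport, cyclic nucleotide breakdown and the cytoskeleton. Pde2a, a phosphodiesterase stimulated by cGMP (chromosome 7 from 101410886 to 101512819), was at 38.7, 44.1, 44.1 and 45.4 RPKM in T2 and 1.2, 1.47, 1.47 and 1.85 in MZ, with 27.0 to 32.9 in FO. Its fall was 28.8-fold (log2 difference -4.45, SE 0.09, adjusted p = 1.42e-07), and MZ was the only subset of the 4 in which it was low. Vim, the intermediate filament protein vimentin, had 165, 149, 146 and 161 in T2 and 7.08, 12.3, 7.26 and 20.0 in MZ. All 12 libraries of T1, T2 and FO held at least 134 RPKM of it, and the log2 difference was -3.80 (SE 0.30, adjusted p = 4.05e-05). Cacna1i, a subunit of T-type calcium channels, fell from 37.3 ± 5.01 to 1.9 ± 0.722 (-4.02), Atp1b1, a subunit of the sodium-potassium pump, from 20.3 ± 2.85 to 0.583 ± 0.16 (-4.26), and Trib2, a pseudokinase, from 22.4 ± 1.22 to 1.45 ± 0.453 (-3.59). Hvcn1, the voltage-gated proton channel, was even across T1, T2 and FO (199.8 to 252 RPKM) and fell to 24.9 ± 6.1 in MZ (-3.27). Kctd14 and Serinc5, a membrane protein that can restrict retroviruses, both fell by 3.35 on the log2 scale. Myadm fell by 4.48 on the log2 scale, but it overlaps other annotation on its strand of chromosome 7, so its reads may be shared and its value is uncertain.

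In absolute level the largest rises were those of ribosomal proteins, CD21 and the secretory pathway. Rplp1 rose from 1366 ± 255 to 3059 ± 365 RPKM (log2 difference 1.17), Rplp0 from 521 ± 89.1 to 1101 ± 126 (1.09), Rps12 from 1363 ± 248 to 2809.6 ± 327 (1.05) and Rpsa from 483 ± 109 to 958 ± 114 (1.00). Rps12 was not called without KO MZ replicate 2 (0.99), KO T2 replicate 1 (0.96) or WT T2 replicate 1 (0.99), and Rpsa not without any of these (0.95, 0.90 and 0.92) or without WT MZ replicate 1 (0.96) or WT MZ replicate 2 (0.99). With median-ratio scaling Rpsa was not called either (0.98). After quantile normalization none of the 4 was called (0.77, 0.81, 0.64 and 0.74, in the order given). Ly6a (Sca-1) rose from 185 ± 52.7 to 679 ± 51.1 (1.92). Downwards the largest were Fcer2a, then Btla, an inhibitory receptor, from 421 ± 31.6 to 142 ± 19.6 (-1.57), Ptma from 429 ± 61.9 to 189.8 ± 18.6 (-1.17), Hvcn1, the sorting nexin gene Snx2 from 384 ± 23.9 to 178 ± 12.8 (-1.11), Cd55, and Rap1b, a small GTPase of integrin activation, from 272 ± 50 to 107 ± 17.3 (-1.34).

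The gene lists below were taken whole, and their counts stand beside the 11.6% called and the median log2 difference of 0.02 over all genes tested. Of all 11816 genes tested, 5278 passed an adjusted p under 0.05 (limma), and 1365 of these were called. The others were within the fold criterion, so members of that kind are frequent over all genes too.

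**Figure D2:**
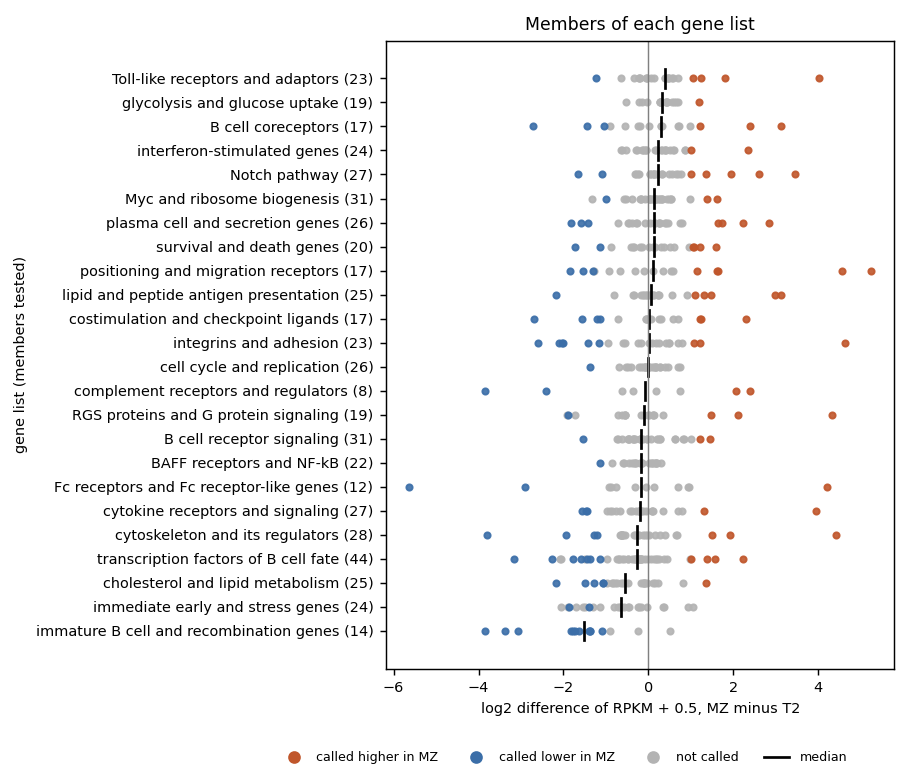
Log2 difference (MZ minus T2, of RPKM + 0.5) of every tested member of 24 gene lists, with the number tested in brackets; orange and blue points are called higher and lower, grey points are not called, and the black bar is the median of the list. The medians lie between -0.65 and 0.38, except that of the immature B cell list at -1.51.

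Hes5, Dtx1, Dtx3 and Dtx4 rose, while Hes1, Dtx2 and the receptor gene Notch2 were not called. Of 35 genes of the Notch pathway 27 were tested, of which 5 rose and 2 fell (25.9% called), with a median of 0.22. A further 8 were higher and 2 lower at an adjusted p under 0.05 but within the fold criterion. Over all 11816 genes tested, 5278 passed that adjusted p, 1365 of them called. Dtx1, a ubiquitin ligase of the Deltex family (chromosome 5 from 120680202 to 120711927), was at 14.6, 21.6, 16.2 and 30.4 RPKM in T2 and 259, 226, 193 and 222 in MZ. The subsets were far apart, and FO stood between them at 43.7 to 62.9 (log2 difference 3.46, SE 0.22, adjusted p = 1.47e-05). Hes5, a transcriptional repressor induced by Notch (chromosome 4 from 154960923 to 154962371), was at 1.14, 0.269, 0.794 and 0.992 in T2 and 4.62, 6.91, 9.24 and 8.26 in MZ (log2 difference 2.59, SE 0.24, adjusted p = 0.000101). It was at 0.936 to 1.32 RPKM in T1 and 0.751 to 1.15 in FO, so among the 4 subsets MZ alone expressed it clearly. Dtx4 rose from 0.968 ± 0.171 to 5.12 ± 0.574 (1.94) and Dtx3 from 12.8 ± 1.01 to 33.6 ± 1.77 (1.36), while Dtx2 went from 4.75 ± 0.628 to 3.68 ± 0.346 and was not called.

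The Mastermind coactivators went opposite ways. Maml2 rose from 10.8 ± 0.293 to 22.2 ± 1.25 (log2 difference 1.01) and lost its call at 0.98 without WT T2 replicate 1 and at 0.99 without WT MZ replicate 2, as it did with a pseudocount of 1 (0.98) and median-ratio scaling (0.99). Maml3 fell from 2.64 ± 0.385 to 0.492 ± 0.0946 (-1.66). Lfng, a Fringe glycosyltransferase that raises the response to Delta-like ligands, fell from 16.2 ± 4.64 to 7.11 ± 0.796 (-1.10), and to a difference of -0.92 with no call when KO T2 replicate 2 was left out. Notch2 was at 58.1, 66.9, 59.1 and 72.1 RPKM in T2 and 75.7, 70.1, 62.0 and 71.0 in MZ. These ranges overlapped (log2 difference 0.12, SE 0.10, adjusted p = 0.328). Hes1 (25.6 ± 5.57 and 43.6 ± 6.26), Rbpj (4.62 ± 0.711 and 7.04 ± 0.95) and Notch1 (2.24 ± 0.391 and 3.96 ± 0.473) were each higher in all 4 MZ libraries at an adjusted p under 0.05 but did not reach the fold criterion. The ligand genes Dll1, Dll4, Jag1 and Jag2 and the receptors Notch3 and Notch4 stayed under the filter on low values.

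**Figure D3:**
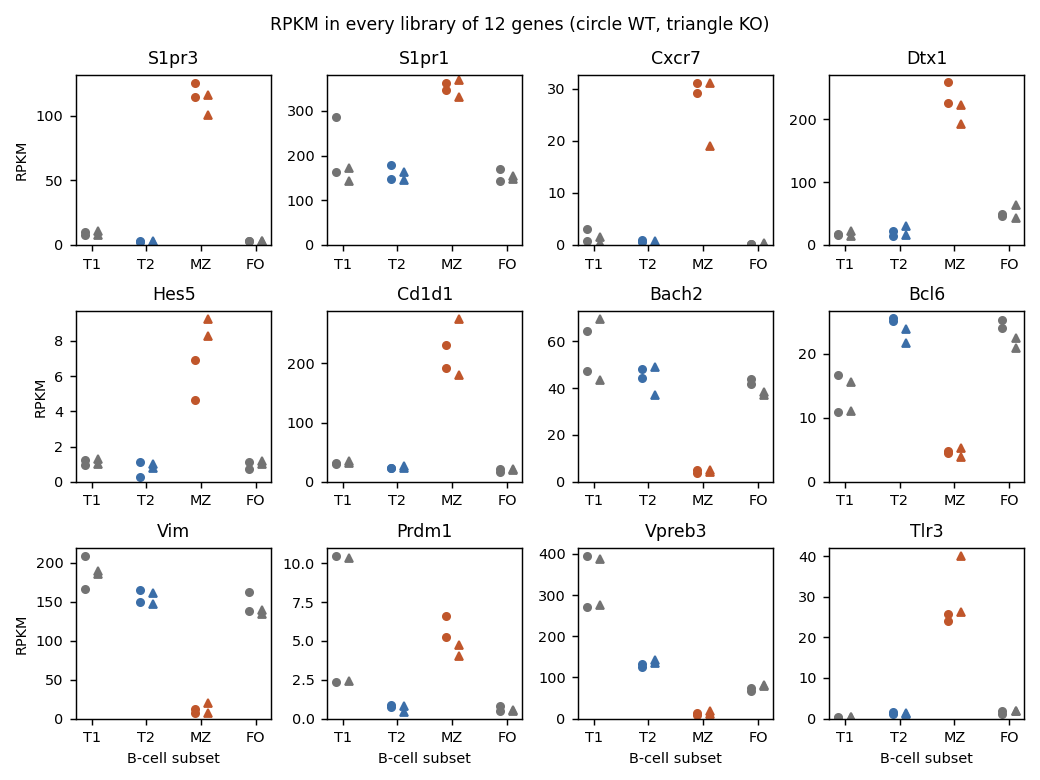
RPKM of 12 genes in all 16 libraries by B-cell subset, 1 point per library, circles WT and triangles KO; MZ is orange, T2 blue, T1 and FO grey. S1pr3, Cxcr7, Hes5, Cd1d1 and Tlr3 are high in MZ alone, and Dtx1 is highest in MZ with FO (43.7 to 62.9) between MZ and T2. Bach2, Bcl6, Vim and Vpreb3 are lowest in MZ, and Prdm1 in MZ (4.06 to 6.63) lies within its range in T1 (2.35 to 10.5).

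The sphingosine-1-phosphate receptors S1pr3 and S1pr1 rose, and the lymphoid homing receptor Ccr7 fell. Of 23 positioning and migration receptors 17 were tested, of which 5 rose and 3 fell (47.1% called), with a median of 0.12. S1pr3, a receptor for sphingosine-1-phosphate (chromosome 13 from 51408639 to 51422797), was at 3.05, 2.28, 2.69 and 2.11 RPKM in T2 and 126, 115, 101 and 116 in MZ. It was low in all 4 T2 libraries, and its mean was 45.2-fold higher in MZ (log2 difference 5.25, SE 0.11, adjusted p = 1.42e-07), with 7.43 to 11 in T1 and 2.71 to 3.19 in FO. S1pr1, the receptor that opposes retention in follicles (chromosome 3 from 115710433 to 115715072), was at 179, 148, 145 and 164 in T2 and 362, 346, 369.7 and 330.0 in MZ. It was therefore abundant in both subsets, and its rise was 2.21-fold (log2 difference 1.15, SE 0.09, adjusted p = 3.64e-05). By level per length, S1pr1 stood above S1pr3 in each of the 8 libraries. S1pr4 went down, from 40.5 ± 5.95 to 13.6 ± 1.16 (-1.53).

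Cxcr7 (Ackr3), which scavenges CXCL12 and is thought to shape its gradients, was at 0.63, 0.943, 0.448 and 0.701 RPKM in T2 and 29.2, 31.1, 19.0 and 31.1 in MZ. KO MZ replicate 1 was the lowest of the MZ libraries, yet still far above T2 (log2 difference 4.56, SE 0.17, adjusted p = 1.25e-06). Gpr34, a lysophosphatidylserine receptor, rose from 1.89 ± 0.392 to 7.05 ± 2.11 (1.63), and P2ry12, a receptor for ADP, from 0.295 ± 0.182 to 1.89 ± 0.168 (1.62). Ccr7, the receptor for T cell zone chemokines, was at 190.0, 123, 81.4 and 159 in T2 and 60.1, 34.2, 20.7 and 41.6 in MZ (-1.84, SE 0.31, adjusted p = 0.00208). In both subsets KO replicate 1 had the lowest Ccr7. The adenosine receptor Adora2a fell from 6.91 ± 0.43 to 2.49 ± 0.268 (-1.31). Cxcr5, the follicle-homing receptor, was higher in every MZ library (139 ± 11.2 and 200.4 ± 15.6) with a log2 difference of 0.52, which is under the fold criterion. Cxcr4 was not called (adjusted p = 0.109), its MZ values running from 11.6 in KO replicate 1 to 131 in WT replicate 1.

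Adhesion genes split. Of 24 integrin and adhesion genes 23 were tested, of which 3 rose and 6 fell (39.1% called), with a median of 0.01. The tetraspanin Cd9, a known surface marker of MZ cells, was at 1.52, 1.33, 1.91 and 2.12 RPKM in T2 and 59.1, 53.7, 56.8 and 47.1 in MZ. The subsets did not overlap, and T1 (1.48 to 6.79) and FO (2.37 to 2.9) were near T2 (log2 difference 4.63, SE 0.12, adjusted p = 3.76e-07). Cd81, a tetraspanin of the B cell coreceptor complex, rose from 52.9 ± 5.08 to 123 ± 11.1 (1.21) and Itgb1, the beta chain shared by many integrins, from 13.7 ± 1.45 to 29.2 ± 2.27 (1.07). Itgb7, the beta chain of the gut-homing integrin, was at 63.6, 96.0, 67.6 and 103 in T2 and 9.31, 14.9, 10.8 and 17.7 in MZ (-2.61, SE 0.23, adjusted p = 7.81e-05). Itgb7 did not overlap between the subsets, and FO held 113 to 124 RPKM of it. Itgb3 (-2.10), Itga6 (-2.03), Alcam (-2.02) and Icam2 (-1.16) fell as well. Itgal and Itgb2, the chains of LFA-1, differed by 0.80 and 0.48, under the fold criterion.

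In the Toll-like receptor list, with 28 genes of which 23 were tested, 4 rose and 1 fell (21.7% called), and the median of 0.38 was the highest of the 24 lists. Tlr3, the endosomal receptor for double-stranded RNA, was at 1.09, 1.62, 1.16 and 1.29 RPKM in T2 and 25.8, 24.0, 40.0 and 26.3 in MZ. KO MZ replicate 1 stood above the other MZ libraries, and all 4 were far above T2 (log2 difference 4.02, SE 0.17, adjusted p = 2.05e-06). Its adaptor Ticam1 (TRIF) rose from 7.22 ± 0.86 to 17.5 ± 0.879 (1.23), and Ly96 (MD-2), the partner of TLR4, from 7.14 ± 2.17 to 25.5 ± 3.31 (1.81). Tlr7, a receptor for single-stranded RNA, rose from 28.6 ± 3.55 to 59.7 ± 4.03 (1.05), but at 0.98 it was not called without WT T2 replicate 2. Tlr12 fell from 2.63 ± 0.917 to 0.789 ± 0.169 (-1.24), which was -0.99 and not called with a pseudocount of 1. Another 8 members were higher at an adjusted p under 0.05 with smaller differences, among them Cd180 (0.71), Tlr9 (0.57), Unc93b1 (0.47) and Myd88 (0.38).

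Of the B cell receptor signaling genes, Blk and Nfatc2 rose and Rasgrp3 fell. All 31 genes of this list were tested and 9.68% were called, near the 11.6% of all genes tested, with a median of -0.16, and 7 more were higher and 10 lower within the fold criterion. The Src-family kinase Blk rose from 202 ± 11.9 to 473 ± 11.9 (log2 difference 1.23) and Nfatc2 from 2.6 ± 1.14 to 7.63 ± 1.3 (1.45). Rasgrp3, which activates Ras behind the receptor, fell from 73.8 ± 3.34 to 25.2 ± 3.93 (-1.54). Cd79b (-0.03) and Syk (-0.13) were not called.

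Among 18 coreceptor genes, 17 of them tested, 3 rose and 3 fell (35.3% called, median 0.29). Lair1, an inhibitory receptor for collagen, was at 0.414, 1.17, 0.487 and 0.927 RPKM in T2 and 11.1, 10.4, 9.91 and 9.2 in MZ. The other subsets were low for it, with at most 0.533 in FO (3.13, SE 0.20, adjusted p = 1.55e-05). Cd200, a ligand that restrains myeloid cells, fell from 24.8 ± 1.24 to 3.4 ± 0.79 (-2.72), and Spn (CD43) from 4.85 ± 0.466 to 1.54 ± 0.712 (-1.45). Cr2 rose 5.33-fold, from 156 ± 12.3 to 829 ± 110.3, as its gate requires, and another entry of the same symbol went from 85.7 ± 5.56 to 653 ± 59.5. Pira2 fell by 1.06 on the log2 scale, but was not called without the KO replicate 1 libraries (-0.996) or with a pseudocount of 1 (-0.90). Of 14 Fc receptor genes 12 were tested, of which 1 rose and 2 fell (25.0% called, median -0.18). The 2 that fell were Fcgrt and the sort marker Fcer2a. Fcrl5, an Fc receptor-like protein of innate-like B-cells, was at 10.8, 10.7, 8.55 and 12.7 in T2 and 204, 205, 198 and 204 in MZ. The 4 MZ libraries were nearly equal, and the rise was 19.0-fold (4.20, SE 0.11, adjusted p = 3.32e-07). Fcgrt, the neonatal Fc receptor that recycles IgG, fell from 19.5 ± 3.12 to 2.21 ± 0.58 (-2.90).

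Of 14 complement genes 8 were tested, of which 2 rose and 2 fell (50% called, median -0.09), with the sort markers Cr2 and Cd93 among them. Cd55, which protects cells from complement, was at 213, 236, 213 and 224 RPKM in T2 and 35.7, 49.4, 38.5 and 43.4 in MZ, a 5.31-fold fall (-2.40, SE 0.11, adjusted p = 2.45e-06). Every MZ library was also under T1 (117 to 132) and FO (176 to 238). Cd59a, another inhibitor of complement, was at 4.03, 3.65, 0.0409 and 2.23 in MZ, so KO MZ replicate 1 overlapped T2 (at most 0.184). With 4 reads in T2, its log2 difference of 2.06 depends on the pseudocount, and it was not called without WT MZ replicate 1 (1.87) or WT MZ replicate 2 (1.92).

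Cd1d1, Cd1d2 and Psap rose, while Cd74 and H2-Ab1 were not called. All 25 genes of the antigen presentation list were tested, of which 5 rose and 1 fell (24.0% called, median 0.06). Cd1d1, which presents lipids to NKT cells (chromosome 3 from 86995834 to 86999441), was at 23.6, 23.8, 26.6 and 23.9 RPKM in T2 and 230.0, 192, 275 and 179.8 in MZ. MZ was 8.95-fold higher (log2 difference 3.12, SE 0.13, adjusted p = 2.03e-06) and stood alone against T1 (29.9 to 35.5) and FO (16 to 21.6). Cd1d2, its neighbour and near copy, is annotated as a polymorphic pseudogene and rose from 0.722 ± 0.38 to 9.19 ± 2.91 (2.99). Since only uniquely aligned reads were kept, reads of the pair may have been split or lost. Psap, the precursor of saposins that load lipids on CD1d, was at 293, 291, 286 and 291 in T2 and 812, 703, 692 and 697 in MZ (1.32, SE 0.08, adjusted p = 9.8e-06). Apoe rose from 27.4 ± 12.8 to 71.3 ± 13.1 (1.47) and Ctsb, a lysosomal protease, from 26.9 ± 1.53 to 57.8 ± 4.74 (1.09). Apoe is also a macrophage gene, and the part of macrophages in its values was not tested. It was at 58.9 to 89.7 RPKM in MZ, 71.4 to 89.6 in FO and 8.86 to 116 in T1. In a fit to all 16 libraries Apoe was not called. Cd74 (-0.12) and H2-Ab1 (0.06), of MHC class II, and B2m (0.14) were not called.

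Cd80, Cd86 and Cd274 rose, and Slamf1, Btla, Cd83 and Tnfrsf13c fell. Of 23 costimulation and checkpoint genes 17 were tested, of which 3 rose and 4 fell (41.2% called, median 0.01). Cd80 rose from 0.525 ± 0.304 to 4.44 ± 0.825 (log2 difference 2.31), Cd86 from 11.1 ± 0.983 to 26.5 ± 1.85 (1.22), and Cd274 (PD-L1), the ligand of PD-1, from 42.3 ± 15.8 to 98.1 ± 23.2 (1.24). The fallen members were Slamf1, which was at 21.4, 22.7, 24.9 and 22.9 RPKM in T2 and 2.52, 4.03, 2.72 and 3.48 in MZ (-2.69), Btla (-1.57), Cd83, from 122 ± 10.6 to 53.3 ± 12.4 (-1.21), and Tnfrsf13c, the BAFF receptor. None of these 7 overlapped between the subsets, as held for 784 of all 816 risen and 509 of all 549 fallen genes. Tnfrsf13c was at 246, 243, 289.7 and 232 in T2 and 97.7, 114, 126 and 119 in MZ (-1.14, SE 0.09, adjusted p = 4.45e-05). It was the only one called among 22 tested of 23 members of the BAFF and NF-kB list (4.55%, median -0.17), and the BAFF receptor relative Tnfrsf13b (TACI) was at 117 ± 10.7 and 118 ± 11.4 with no call.

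In the cytokine receptor list, 27 of 30 members were tested, 2 rose, 3 fell, and 11 more were lower within the fold criterion (18.5% called, median -0.20). Il9r, the receptor for interleukin-9, was at 6.38, 16.9, 5.97 and 13.2 RPKM in T2 and 168, 205, 123 and 143 in MZ. FO stood between (21.1 to 41.2) and T1 was at 0.127 to 0.84 RPKM (3.96, SE 0.32, adjusted p = 4.67e-05). Il6st (gp130) rose from 3.82 ± 0.64 to 10.2 ± 0.278 (1.32). The 3 that fell were Il4ra, from 69.9 ± 7.76 to 23.2 ± 2.46 (-1.57), Il21r, from 116 ± 12.4 to 42.6 ± 6.24 (-1.44), and Il2ra, from 1.95 ± 0.641 to 0.359 ± 0.0959 (-1.48).

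Rgs10 and Myof were low in T2 and high in MZ. Of 21 RGS and G protein genes 19 were tested, of which 3 rose and 1 fell (21.1% called, median -0.11). Rgs10, which shortens G protein signals, was at 1.69, 2.53, 0.924 and 2.0 RPKM in T2 and 43.1, 41.0, 48.6 and 42.3 in MZ (4.33, SE 0.21, adjusted p = 3.62e-06). Rgs3 rose from 0.566 ± 0.168 to 4.09 ± 0.349 (2.12) and the receptor kinase gene Grk5 from 2.59 ± 0.516 to 8.07 ± 0.774 (1.48), while Rgs13, known from germinal center B-cells, fell from 1.96 ± 0.483 to 0.168 ± 0.146 (-1.88). Of 32 cytoskeleton genes 28 were tested, of which 3 rose and 4 fell (25.0% called, median -0.27). Myof, a ferlin of membrane repair, was at 4.2, 4.11, 4.15 and 3.62 in T2 and 101, 94.4, 97.5 and 90.7 in MZ. Its replicates were close in both subsets, and the rise was 23.9-fold (4.42, SE 0.07, adjusted p = 4.07e-08). Ptk2 (FAK), which works with integrins, rose from 1.21 ± 0.414 to 4.27 ± 0.325 (1.51), and Coro2b from 0.0365 ± 0.0203 to 1.59 ± 0.644 (1.91, on 10 reads in T2). Besides Vim, Arhgef18 (-1.94), Rhoh (-1.29) and Dock11 (-1.21), all members or regulators of small GTPase pathways, fell, and 10 other members were lower within the fold criterion.

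Bach2 and Bcl6 fell and Prdm1 rose. Of 47 factors 44 were tested, of which 4 rose and 7 fell (25.0% called), with a median of -0.27. Bach2, a repressor of plasma cell differentiation (chromosome 4 from 32238804 to 32586108), was at 48.1, 44.5, 49.0 and 37.0 RPKM in T2 and 3.67, 5.08, 4.25 and 5.0 in MZ. It was high in T1 (43.6 to 69.6) and FO (36.9 to 44.1) too, and the fall to MZ was 9.91-fold (log2 difference -3.18, SE 0.13, adjusted p = 1.71e-06). Bcl6, the repressor of the germinal center program, was at 25.1, 25.6, 23.9 and 21.7 in T2 and 4.42, 4.89, 3.9 and 5.26 in MZ (-2.27, SE 0.10, adjusted p = 2.37e-06). Prdm1 (Blimp1), which drives plasma cell differentiation and is repressed by both, was at 0.89, 0.735, 0.409 and 0.816 in T2 and 6.63, 5.27, 4.06 and 4.72 in MZ. Its direction was the opposite, upward by 2.22 (SE 0.16, adjusted p = 2.23e-05). The early lymphoid factors Sox4 (-1.77), Lef1 (-1.59) and Myb (-1.39) fell, as did the E protein antagonist Id3, from 30.3 ± 3.82 to 11.04 ± 2.64 (-1.44), and Klf3, from 44.9 ± 2.34 to 20.0 ± 0.619 (-1.15). Id2, of the same family, rose from 6.79 ± 1.47 to 21.6 ± 6.13 (1.58). Runx3 rose by 1.00, at the threshold, and was not called without KO MZ replicate 2 (0.97), KO T2 replicate 1 (0.95), WT MZ replicate 1 (0.93) or WT T2 replicate 1 (0.93), nor with a pseudocount of 1 or median-ratio scaling (0.98 each). Mef2c (-0.97), Foxo1 (-0.73) and Irf8 (-0.69) were lower in every MZ library but within the fold criterion, and Pax5 (0.06) and Ebf1 (-0.07) were not called.

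Most tested members of the immature B cell and recombination list fell. Of 21 members 14 were tested, of which 11 fell and none rose (78.6% called), and the median was -1.51. The members were chosen with earlier results of these data known, so this share is not an independent result. Summed over the 21 members, RPKM was 1653 to 2228 in T1, 1027 to 1152 in T2, 567 to 646 in MZ and 614 to 743 in FO. The sum was therefore lower than in T2 in FO as well, and not in MZ alone. Cd93, of the sort, Sox4, Myb and Dusp2 are among the 11. Vpreb3, which assists assembly of the immature receptor, was at 126, 131, 143 and 135 RPKM in T2 and 8.56, 14.3, 10.3 and 19.1 in MZ. T1 held 271 to 395 and FO 66.9 to 81.6, so MZ was the lowest of the 4 subsets (-3.37, SE 0.21, adjusted p = 1.29e-05). Cplx2 fell from 5.29 ± 2.15 to 0.146 ± 0.041 (-3.08), Ms4a4c from 122 ± 2.87 to 34.7 ± 7.31 (-1.83), Cecr2 from 7.99 ± 1.87 to 2.01 ± 0.131 (-1.73), Satb1, a chromatin organizer, from 18.4 ± 0.465 to 6.85 ± 0.271 (-1.37), and Slpi from 3.27 ± 1.45 to 0.672 ± 0.24 (-1.63). Ms4a4c differed from Vpreb3 in T1, where it was low (20.8 to 44.0), and was highest in T2 and FO. Tcf7, a T cell factor, fell by 1.09 and was not called without KO T2 replicate 2, WT MZ replicate 1 or WT T2 replicate 2 (-0.95, -0.96 and -0.99), with a pseudocount of 1 (-0.91) or in a fit to all 16 libraries. Slpi is also a gene of myeloid cells, whose markers fell too, and Satb1 and Tcf7 are strong in T cells. Of the 5 tested T cell markers 0 were called, but 4 lay below 0 (Cd8a at -0.84 with an adjusted p of 0.016, limma, Cd3g at -0.84, Cd3d at -0.60 and Cd3e at -0.57) and Lck was at 0.06, with a median of -0.60. The part of either cell type in these values was not tested. Rag1, Rag2, Dntt, Igll1, Vpreb1, Vpreb2 and Erg were under the filter.

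Pdia4, Mzb1 and Derl3 rose, while other chaperone genes were not called. All 26 genes of the secretory list were tested, of which 4 rose and 3 fell (26.9% called, median 0.14). Pdia4, a disulfide isomerase of the endoplasmic reticulum (chromosome 6 from 47796141 to 47813430), was at 78.9, 81.6, 90.4 and 100.1 RPKM in T2 and 583, 627, 682 and 615 in MZ, with 78.7 to 106 in FO. The rise was 7.14-fold (log2 difference 2.83, SE 0.08, adjusted p = 3.76e-07). Mzb1, a chaperone of IgM secretion named after marginal zone cells, was at 120.4, 131, 113 and 148 in T2 and 404, 431, 406 and 449 in MZ (1.72, SE 0.10, adjusted p = 7.72e-06), and Derl3 rose from 3.22 ± 0.506 to 11.3 ± 2.74 (1.65). Other chaperones were not called, among them Hspa5 (0.12), Hsp90b1 (-0.09) and Calr (-0.38), nor was Xbp1 (32.3 ± 3.69 and 35.4 ± 3.52). The plasma cell genes Sdc1 (-1.82), Fkbp11 (-1.58) and Igj (-1.42) fell. Summed over Sdc1, Igj, Xbp1, Prdm1 and Irf4, the plasma cell markers were 114 to 222 RPKM in T2, 126 to 223 in MZ and 686 to 4160 in T1. Igj, the joining chain of secreted IgM, was at 38.5, 36.3, 21.2 and 28.1 in T2, 6.09, 8.19, 16.3 and 17.3 in MZ and 428 to 3876 in T1, and it was not called in a fit to all 16 libraries.

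In the Myc and ribosome biogenesis list of 32 genes, 31 of them tested, 2 rose and 1 fell (9.68% called, near the share of all genes tested, median 0.14). Mxd4, a Myc antagonist, was at 25.1, 27.5, 30.5 and 29.2 RPKM in T2 and 88.6, 80.4, 89.4 and 92.2 in MZ (1.63, SE 0.06, adjusted p = 1.32e-06). Myc was at 58.4, 68.4, 34.9 and 79.0 in T2 and 221, 189, 58.0 and 214 in MZ, so that 3 MZ libraries were high and KO MZ replicate 1 lay within T2. Its rise of 1.38 (SE 0.42, adjusted p = 0.0278) was not called without KO MZ replicate 2 (1.07), KO T2 replicate 1 (1.21), WT MZ replicate 1 (1.28), WT MZ replicate 2 (1.37), WT T2 replicate 1 (1.28) or WT T2 replicate 2 (1.37), nor with no filter on low values. Ccnd2, a D-type cyclin, fell by 1.00, at the threshold, and was not called without KO T2 replicate 1 (-0.87), WT MZ replicate 1 (-0.94), WT MZ replicate 2 (-0.998), WT T2 replicate 1 (-0.90) or the KO replicate 1 libraries (-0.93), nor with a pseudocount of 1 (-0.97) or quantile normalization (-0.98). Of 26 tested cell cycle genes 1 was called (3.85%, 30 members), namely E2f2, which fell from 29.3 ± 4.47 to 10.99 ± 1.13 (-1.37). Mki67 (0.47), Top2a (0.28) and Mcm2 (-0.12) were not called. In glycolysis, 1 of 19 tested members of 21 was called (5.26%, median 0.32), Pfkm, which rose from 1.12 ± 0.176 to 3.18 ± 0.363 (1.19; 0.98 with a pseudocount of 1 and 0.97 after quantile normalization, both not called), and 11 others were higher within the fold criterion, such as Gpi1 (0.70), Pgk1 (0.64) and Gapdh (0.44).

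Hmgcs1, Sqle, Insig1 and Abca1 fell and Scd2 rose. Of 31 lipid genes 25 were tested, of which 1 rose and 5 fell (24.0% called), 20 lay below 0, and the median was -0.55. Hmgcs1, an early enzyme of the pathway, was at 26.2, 20.0, 28.0 and 16.1 RPKM in T2 and 6.8, 7.33, 8.29 and 7.46 in MZ (-1.50, SE 0.17, adjusted p = 0.00029). Sqle, which makes squalene epoxide, fell from 4.94 ± 0.99 to 1.72 ± 0.341 (-1.29) and Insig1, the sterol sensor partner of SREBP, from 20.4 ± 3.96 to 9.4 ± 1.35 (-1.07). Abca1, which exports cholesterol, fell from 27.9 ± 2.63 to 13.0 ± 1.75 (-1.07), while Abcg1, another cholesterol exporter, was higher in every MZ library (19.4 ± 0.89 and 34.3 ± 1.09, log2 difference 0.81, adjusted p = 1.90e-05) within the fold criterion. The next members, Cyp51 (-0.97), Fdps (-0.86) and Idi1 (-0.83), were among 9 that were lower within the fold criterion. Scd2, a fatty acid desaturase, rose from 30.2 ± 6.88 to 77.0 ± 13.9 (1.35).

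Survival genes were called in both directions. Of 24 members 20 were tested, of which 4 rose and 2 fell (30.0% called, median 0.14). Bid, a pro-death BH3 protein, rose from 15.6 ± 2.32 to 47.5 ± 1.83 (1.59), whereas Bmf, another, was at 16.5, 17.6, 14.8 and 15.2 RPKM in T2 and 4.59, 4.62, 4.14 and 4.64 in MZ (-1.72, SE 0.07, adjusted p = 1.8e-06). The anti-death gene Bcl2l1 (Bcl-xL) fell from 1.45 ± 0.0801 to 0.386 ± 0.0682 (-1.14), but was not called with a pseudocount of 1 (-0.82). Its relatives Bcl2a1b (1.06) and Bcl2a1d (1.07) rose, but they are near-identical copies that may share reads, and Bcl2a1d was not called without WT MZ replicate 2 (0.96) or WT T2 replicate 1 (0.97), after quantile normalization (0.96), with a pseudocount of 1 (1.00) or in a fit to all 16 libraries. Bbc3 (Puma) rose by 1.21 and was not called without KO T2 replicate 1 (0.92) or WT MZ replicate 1 (1.02), with a pseudocount of 1 (0.97) or after quantile normalization (0.99). Mcl1 (-0.88) and Bcl2 (0.38) were within the fold criterion. Of 25 interferon-stimulated genes 24 were tested, of which 2 rose (8.33% called, median 0.24). These were Isg15, at 3.82, 3.88, 5.4 and 7.81 in T2 and 26.2, 24.9, 28.0 and 32.2 in MZ (2.35, SE 0.14, adjusted p = 9.58e-06), and Ifit3 (1.00), which was not called without KO MZ replicate 1 (0.97), KO T2 replicate 2 (0.97), WT MZ replicate 1 (0.98), WT T2 replicate 2 (0.95) or the KO replicate 1 libraries (0.98), nor with a pseudocount of 1 or median-ratio scaling (0.98 each). Irf7 (-0.65) was lower and Oas2 and Gbp2 (0.87 each) were higher within the fold criterion.

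Immediate early genes varied strongly between replicates. Of 25 members 24 were tested and 2 fell (8.33% called), with a median of -0.65. The summed RPKM of the list was 1463 to 4314 in T2 and 427 to 4693 in MZ. Fos was at 760.5, 509.6, 159 and 590.5 RPKM in T2 and 663, 192, 4.03 and 333 in MZ. KO replicate 1 was the lowest library of either subset, and the log2 difference of -1.89 had an SE of 1.26 (adjusted p = 0.258). Egr1 was at 283, 155, 61.2 and 96.3 in T2 and 136, 37.0, 3.32 and 45.5 in MZ (-2.05, SE 0.77, adjusted p = 0.0609). The 2 called members were Dusp2, a phosphatase of MAP kinases, at 244, 264, 145 and 254 in T2 and 108, 91.4, 49.9 and 99.9 in MZ (-1.39, SE 0.24, adjusted p = 0.00224), and Ier2, at 124, 134, 51.5 and 131 in T2 and 63.5, 31.7, 7.74 and 37.9 in MZ (-1.86, SE 0.51, adjusted p = 0.0195). Ier2 overlapped between the subsets and was not called without WT MZ replicate 2 (-1.74). Klf2, a factor of B-cell trafficking that opposes the MZ fate, followed the same library pattern, with 339, 278, 185 and 362 in T2 and 211, 68.1, 9.66 and 131 in MZ (-2.09, SE 0.79, adjusted p = 0.0623). Without the KO replicate 1 libraries, a choice made after seeing these values, it was called with a difference of -1.39, and the number of genes called over the whole comparison was 1336 (786 higher and 550 lower). What sets the KO replicate 1 libraries apart was not tested.

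**Figure D4:**
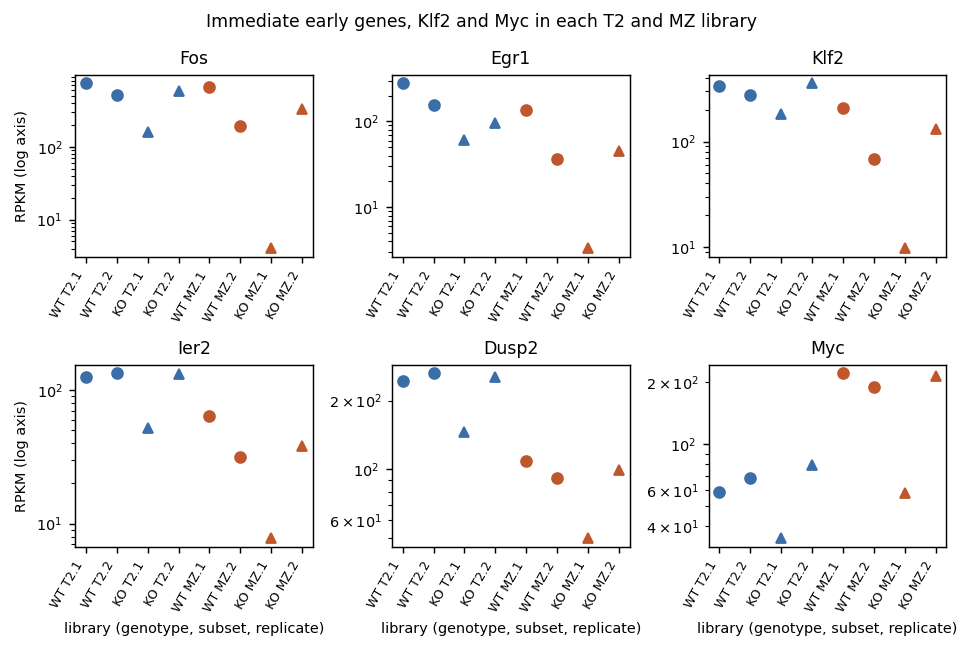
RPKM on a log axis of Fos, Egr1, Klf2, Ier2, Dusp2 and Myc in each of the 8 libraries, circles WT and triangles KO, blue T2 and orange MZ. The axis names give genotype, subset and replicate. KO MZ replicate 1 is the lowest library for all but Myc, with 4.03 RPKM of Fos and 9.66 of Klf2.

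The change from T2 to MZ was also taken within WT and within KO. As contrasts within each genotype of 1 fit to the same 8 libraries, 1351 genes (11.4%) were called in WT, 809 higher and 542 lower, and 1203 (10.2%) in KO, 742 higher and 461 lower. The WT count fell to 879 without WT MZ replicate 1, and the KO count to 564 without both KO replicate 1 libraries. A total of 1050 genes were called in both with the same direction, which is 77.7% of the WT calls and 87.3% of the KO calls. Over the 1365 genes called with the genotypes pooled, the median size of the difference between the changes in WT and in KO was 0.18. Dtx1 differed by 3.73 in WT and 3.19 in KO, S1pr3 by 5.26 and 5.23, Cd1d1 by 3.12 and 3.11, and Bach2 by -3.28 and -3.07. For the difference of the change between KO and WT, limma called 0 of 11816 genes (0%) at an adjusted p under 0.05, with 168 (1.42%) at an unadjusted p under 0.05, and limma-voom on recovered reads called 0, with 92. A fit to all 16 libraries called 3 genes and one without the filter on low values called 19. In the main limma fit to the 8 libraries, the smallest adjusted p was 0.433. The median SE of this difference was 0.24, against 0.11 for the pooled change.

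The smallest p of that difference belonged to Grm6, a glutamate receptor gene (chromosome 11 from 50850685 to 50866208), which was at 0.123, 0.311, 0.599 and 1.02 RPKM in T2 and 1.18, 1.8, 29.3 and 28.9 in MZ. Both KO MZ libraries were high and both WT MZ libraries were near T2 (log2 difference 1.47 in WT and 4.51 in KO, adjusted p of the difference 0.433). Gm12660, an antisense gene that lies within Grm6 and whose reads cannot be told apart from it without strand, was high in the same libraries, at 0.333, 0.319, 7.25 and 5.4 in MZ. Igj, whose values are given above, differed by -2.32 in WT and -0.53 in KO (adjusted p = 0.681 for the difference). Gm25220 differed by -2.38 in WT and 0.87 in KO on 18 reads in T2 and 13 in MZ. None of these 4 differences passed the adjusted threshold.

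**Figure D5:**
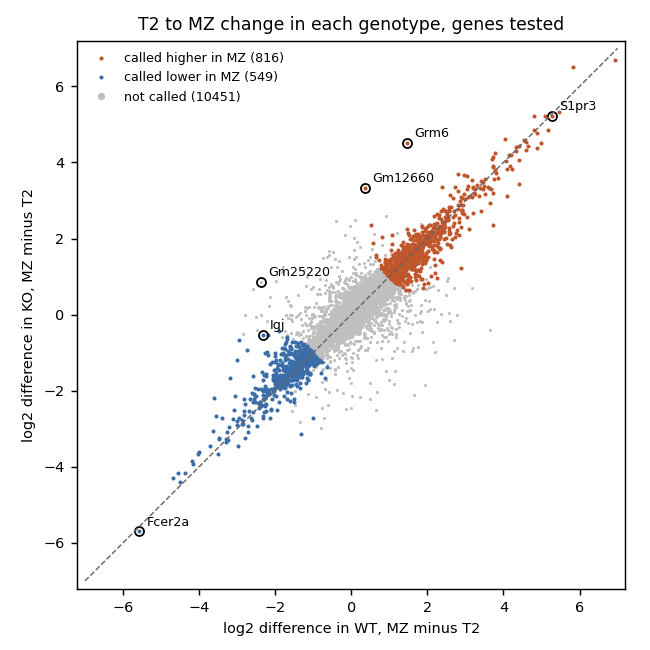
Log2 difference (MZ minus T2, of RPKM + 0.5) in WT (horizontal) against that in KO (vertical), 1 point per gene tested, orange called higher, blue called lower and grey not called with the genotypes pooled; the dashed line marks equal change. Pearson's r across the 11816 genes, which are not independent replicates, was 0.885, and Grm6, Gm12660, Igj and Gm25220, the 4 genes with the smallest p of the difference, are circled off the line, with S1pr3 and Fcer2a circled near it.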

How the data were processed

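RNA-Seq libraries of sorted B-cells were prepared with the TruSeq V2 kit and sequenced as single-end reads. The authors aligned reads to mm10 (GRCm38) with TopHat, kept uniquely aligned reads and deposited RPKM values per gene, with 38355 genes in the table. DESeq and edgeR are named in the submitters' processing notes, without versions. From the RPKM, log2(RPKM + 0.5) was computed, and the 4 MZ libraries were compared with the 4 T2 libraries in limma 3.58.1 (limma-trend, R 4.3.3) with genotype as covariate, over genes with a mean RPKM over 1 in either subset. Genes were called at a Benjamini-Hochberg adjusted p under 0.05 and a log2 difference beyond 1. Changes within a genotype and their difference came from a model with 4 groups of 2 libraries. The fit was tested on simulated data.

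RPKM steps gave whole reads (tolerance 0.01 reads) for 23194 genes, 100% of those above 0, and limma-voom on these reads called 1626 genes. The T1 and FO libraries gave ranges and entered only 1 alternative. Replicates are separate biological samples, each of pooled mice, so p-values measure the spread between such samples. The labels do not say whether T2 and MZ libraries came from the same pools, and the main fit treated them as unpaired. Without strand, overlapping and antisense genes cannot be separated.

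Named genes were the 12 largest rises and 12 largest falls in log2 difference and the 8 largest each way in mean RPKM among called genes without overlap, the 3 highest and 3 lowest tested members of each of 24 gene lists (592 genes, 519 tested) with members whose role the text turns on, the 4 smallest p of the genotype difference, and cell type markers. A few genes that this rule names are not reported here. Members and lists were chosen with earlier results of these data known. Promoter sequences are from RefSeq (GRCm38.p6), and gene positions from GENCODE M21, in which 36602 of the 38355 IDs were found. Alternatives were other pseudocounts (0.1 and 1), filters, scalings, a replicate block, all 16 libraries, limma-voom, no fold criterion, leaving out each library, and, chosen after seeing the data, leaving out the KO replicate 1 libraries. Python 3.11.15, numpy 2.4.6 and pandas 2.3.3 were used.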

Additional observations from a re-analysis of the deposited data

Results flagged for a closer look

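In 466 groups of 4 libraries, each 1 named gene in T2 or in MZ, 21 (4.51%) had a library that stood apart from the other 3 by Dixon's criterion, a share that chance alone gives in about 1 of 20 groups. Of the 21, 8 were KO MZ replicate 1, 4 were KO T2 replicate 1 and 3 were WT MZ replicate 1. All values are RPKM, and the range of the other 3 libraries follows each.

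KO MZ replicate 1 was low for Cxcr7 (19.0 against 29.2 to 31.1), Maml3 (0.351 against 0.526 to 0.557), Fcrl5 (198 against 204 to 205), Pfkl (9.66 against 11.4 to 11.7), Gpi1 (63.9 against 75.7 to 78.1) and Bmf (4.14 against 4.59 to 4.64). It was high for Tlr3 (40.0 against 24.0 to 26.3) and Tgfbr1, a receptor for TGF-beta (21.8 against 16.2 to 17.1). KO T2 replicate 1 was low for Ier2 (51.5 against 124 to 134), Bcl2l1 (1.33 against 1.48 to 1.49) and the macrophage marker Mrc1 (0.938 against 1.44 to 1.53), and high for Cd1d1 (26.6 against 23.6 to 23.9).

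WT MZ replicate 1 was high for Fosl2, an AP-1 subunit (7.52 against 0.405 to 1.23), for Pax5 (114 against 89.8 to 92.5) and for Psap (812 against 692 to 703). KO T2 replicate 2 was low for Btla (373 against 434 to 439) and Myof (3.62 against 4.11 to 4.20). Single further libraries were WT MZ replicate 2 with Cd93 at 0.356 (0.288 to 0.290), KO MZ replicate 2 with Dtx2 at 4.19 (3.46 to 3.57), WT T2 replicate 2 with Pgk1 at 12.9 (17.1 to 17.7) and WT T2 replicate 1 with Hes1 at 33.9 (22.4 to 23.1). None of these single libraries closed the gap between T2 and MZ for Cxcr7, Tlr3, Fcrl5, Cd1d1, Psap, Btla or Myof.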

How the results depend on the processing

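The number of genes called over the 8 libraries was 1365, and it stayed within 1.5 times of this under every alternative that kept the fold criterion. It was 1610 with a pseudocount of 0.1, 1077 with 1, 1386 without the filter on low values, 1355 with median-ratio scaling, 1334 in a fit to all 16 libraries and 1626 with limma-voom. Quantile normalization gave 1294, with 646 higher and 648 lower. Leaving out each library in turn gave 1289 to 1440, with 785 to 865 higher and 498 to 575 lower. Without the fold criterion, 5278 genes passed (2839 higher and 2439 lower), 3102 in WT (1711 and 1391) and 2682 in KO (1504 and 1178). Over the left-out libraries, WT ran from 879 (527 higher and 352 lower, without WT MZ replicate 1) to 1358 (at most 832 higher and 547 lower) and KO from 834 to 1248, and KO had 564 (348 higher and 216 lower) without the KO replicate 1 libraries. The difference between genotypes was called for 19 genes without the filter on low values and 3 with all 16 libraries, and for 0 under the other alternatives. With the replicate number as a block, 1414 genes were called over both genotypes, 1492 in WT, 1293 in KO and 0 for their difference. The labels do not say that a replicate number marks a shared animal or batch. The correlation of deviations of same-numbered T2 and MZ libraries was 0.0982 in WT and 0.4777 in KO, so that the KO libraries of 1 number deviated together.

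Of 233 named genes, 174 kept direction and side of the threshold in every setting that kept the fold criterion, and 31 of 152 called genes lost the call in at least 1. A sign change was found for 7 genes, all of them not called and near 0 or with large spread. Ms4a1 was -0.014 with median-ratio scaling, -0.26 after quantile normalization and -0.10 to 0.11 over the left-out libraries. Itgam was -0.0089 with median-ratio scaling, -0.21 after quantile normalization, -0.039 without the KO replicate 1 libraries and -0.036 to 0.063 over the left-out libraries. Lck was -0.017 after quantile normalization, -0.050 without the KO replicate 1 libraries and -0.033 to 0.21 over the left-out libraries. Over the left-out libraries, Tnfaip3 ran from -0.71 to 0.15, Nr4a2 from -0.27 to 1.27, Cd79b from -0.071 to 0.0034 and Pax5 from -0.015 to 0.11. The cause of these changes was not tested. With 2 libraries per group, the median SE was 0.17 within a genotype and 0.24 for the difference between genotypes.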

Other observations

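Immunoglobulin variable segments differed between the subsets mostly in one direction. Of 222 tested V, D and J segments, 5 rose and 67 fell from T2 to MZ, with a median log2 difference of -0.56. Over all genes tested, 6.91% rose and 4.65% fell, with a median of 0.02. Of 97 kappa V segments 1 rose and 41 fell (median -0.90), and their summed RPKM was 6711 to 7136 in T2 and 3886 to 4667 in MZ. Of 100 heavy chain V segments 4 rose and 23 fell (median -0.45), with sums of 3751 to 4097 and 2886 to 3358, and of 3 lambda V segments 0 were called, with sums of 1062 to 1158 and 879 to 1058. Uniquely aligned reads were kept, so that reads shared by near-identical segments may be missing from these values, and the part of repertoire and of RNA level in them was not tested.

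Ribosomal protein genes were higher in MZ by small amounts. All 80 tested had a log2 difference above 0 with a median of 0.56, 72 of them at an adjusted p under 0.05 (limma), while 4 passed the fold criterion and 0 were lower. Over all 11816 genes tested, 2839 were higher at that adjusted p threshold and 6.91% were called higher. None of the 4 was called after quantile normalization, which gave 646 genes higher and 648 lower over all genes. Rpsa, of these 4, was not called with median-ratio scaling (0.98) either.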
